A study of Mus musculus with 8 samples.

Results

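The C-type lectin receptors of mouse neutrophils were followed here through 7 genes: Clec7a, Clec4n, Clec4d, Clec4e, Clec5a, Clec4a2 and Clec12a. They were chosen by symbol as the family members that neutrophils are known to carry, and they make up 7 of the 18187 genes in the deposited table. All 7 had a row and all 7 passed the filter on low counts. The libraries were bulk RNA-seq of cells labelled neutrophils, from tumors of B16, a mouse melanoma cell line. There were 3 libraries from aOX40-treated tumors (replicates 1 to 3) and 5 libraries from IgG-treated tumors (replicates 2 to 6). The name aOX40 is that of an antibody against OX40, a costimulatory receptor of T cells, and IgG is the label of the set it is compared with. Mouse strain, age, doses, time of sampling and the way the cells were isolated are not stated in the labels. Nothing in the labels says that the libraries came from separate mice, so the replicate error behind every p-value is that among libraries and could be partly technical.

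C-type lectin receptors bind sugars, lipids and self molecules on microbes and dying cells. The activating ones signal through a tyrosine-based motif, either in their own tail, as in Dectin-1 (Clec7a), or in a partner adaptor. The adaptor is FcRgamma (Fcer1g) for Mincle (Clec4e), MCL (Clec4d) and Dectin-2 (Clec4n), and DAP12 (Tyrobp) or DAP10 (Hcst) for MDL-1 (Clec5a). The kinase Syk and the scaffold CARD9 then carry the signal to NF-kB and cytokine genes. MICL (Clec12a) and DCIR (Clec4a2) instead carry inhibitory motifs that recruit phosphatases such as SHP-1 (Ptpn6).

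All 7 genes lie on mouse chromosome 6 (GRCm38, GENCODE M21 annotation), and 6 of them have a promoter window in the RefSeq table of GRCm38.p6. Clec4e, on the minus strand at chr6:123281789-123289870, and Clec4d, on the plus strand at chr6:123262111-123275265, have their 3′ ends facing each other 6.5 kb apart. Clec4n (chr6:123229843-123247021, plus strand) ends 15.1 kb before Clec4d. Clec4a2 (chr6:123106428-123143999, plus strand) ends 85.8 kb before Clec4n, with Clec4b2 between them. Clec12a (chr6:129342691-129365303, plus strand) and Clec7a (chr6:129461591-129472779, minus strand) are 96.3 kb apart, with Clec12b, Clec1b, Clec9a and Clec1a between them. Clec5a (chr6:40574894-40585821, minus strand) stands apart from both clusters. No member overlaps another gene of the table, and none has a near copy at 95% identity over 50% of its transcript.

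The 250 bases upstream of the annotated start are shown, 5′ to 3′ on the strand of the gene, for the 2 receptors whose counts passed the test and for the neighbours and partners Clec4e and Clec4d, whose within-library ratio is described further on. Capitals mark GAGGAA or its reverse complement TTCCTC, the purine-rich core found in many sites of the myeloid factor PU.1. The windows are chr6:129472780-129473029 (minus strand) for Clec7a, chr6:40585806-40586055 (minus strand) for Clec5a, chr6:123289872-123290121 (minus strand) for Clec4e and chr6:123261857-123262106 (plus strand) for Clec4d.
Clec7a: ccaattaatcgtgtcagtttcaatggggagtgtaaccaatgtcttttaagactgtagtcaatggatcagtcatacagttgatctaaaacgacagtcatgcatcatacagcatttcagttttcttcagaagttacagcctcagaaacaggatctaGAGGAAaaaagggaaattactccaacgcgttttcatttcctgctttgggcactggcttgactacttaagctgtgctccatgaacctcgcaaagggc
Clec5a: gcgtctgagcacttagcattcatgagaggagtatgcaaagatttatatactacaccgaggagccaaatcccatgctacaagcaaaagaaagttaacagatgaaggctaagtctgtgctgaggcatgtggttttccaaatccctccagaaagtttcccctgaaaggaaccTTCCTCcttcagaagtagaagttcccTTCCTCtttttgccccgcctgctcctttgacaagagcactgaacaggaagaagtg
Clec4e: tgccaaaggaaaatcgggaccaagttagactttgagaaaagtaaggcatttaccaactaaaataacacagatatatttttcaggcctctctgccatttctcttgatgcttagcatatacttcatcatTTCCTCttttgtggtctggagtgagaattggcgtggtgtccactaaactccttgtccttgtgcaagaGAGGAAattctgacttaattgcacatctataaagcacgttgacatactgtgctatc
Clec4d: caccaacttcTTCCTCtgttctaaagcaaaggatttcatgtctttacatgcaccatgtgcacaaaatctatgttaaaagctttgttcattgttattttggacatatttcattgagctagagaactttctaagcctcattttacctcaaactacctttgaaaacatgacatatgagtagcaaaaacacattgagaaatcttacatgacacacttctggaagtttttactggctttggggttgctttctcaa

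GAGGAA on either strand was found in the windows of 5 of the 6 members that have one, Clec4a2 being the exception. The same letters occur in 23.3% of the 32851 windows of that length in the table. In Clec7a the match lies 96 to 91 bases before the start, and in Clec5a there are 2 matches, 81 to 76 and 55 to 50 bases before it. Clec4e also has 2, at 123 to 118 and 56 to 51 bases, and a TATAAA at 29 to 24 bases before the start. The Clec4d match is farther out, 240 to 235 bases before the start. TATAAA on either strand was in 3 of the 6 windows (12.4% of all windows), the AP-1 letters TGANTCA in 1 (6.75%) and the STAT-type letters TTCNNNGAA in 1 (7.02%). A core NF-kB motif (4.11% of all windows) and a core interferon-stimulated response element (2.98%) were in none. No matches in the members' windows overlapped each other. These are matches of letters and not sites, and the absence of a match says only that the letters are not in the window.

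Library totals were 69.6 to 73.5 M estimated counts in the aOX40 libraries and 52.7 to 63.2 M in the IgG libraries (71.1 ± 2.06 M in aOX40 libraries against 58.9 ± 5.02 M in IgG libraries, SD, n = 3 and 5). The exact two-sided permutation test of the totals gave p = 0.0357, the smallest that the 56 splits of 3 against 5 allow. Levels are given as CPM, the count of a gene per M counts of its library after TMM scaling, a scaling that takes most genes as unchanged. Across 13278 tested genes, 5.65% passed edgeR's quasi-likelihood test at an adjusted p below 0.05, 2.64% higher and 3.00% lower in aOX40 libraries. By the same test 3287 of the 13278 had an unadjusted p below 0.05. The summed level of 20 neutrophil markers was 34556 to 37790 CPM in aOX40 libraries, against 28156 to 42397 CPM in IgG libraries, and each of the 20 was detected in every library. In edgeR's test 3 of the 20 were called higher and 0 lower, namely Mmp8 (log2 fold change 1.19, adjusted p = 0.0443), Mmp9 (1.28, 0.0467) and Cd177 (1.34, 0.0414). At an unadjusted p below 0.05 there were 4 above 0 and 2 below. Without aOX40 replicate 2 the 3 values were 0.71 for Mmp8, 1.07 for Mmp9 and 0.75 for Cd177, none called. Of 14 macrophage and monocyte markers 12 had a row, and they summed to 1087 to 1529 CPM in aOX40 libraries, against 1406 to 2039 CPM in IgG libraries. Most of that sum came from Cd68 and from Ly6c2, which averaged 547 CPM in aOX40 libraries and 425 CPM in IgG libraries. Of the 11 tested, 8 had a log2 fold change above 0 and 3 below, with a median of 0.38. That median is the value of C1qa, near the floor of the data at 0.61 CPM in aOX40 libraries and 0.44 CPM in IgG libraries. Within that list Adgre1 (F4/80) passed the test as higher, at 21.6 CPM in aOX40 libraries against 6.12 CPM in IgG libraries (log2 fold change 1.81, edgeR adjusted p = 0.0248). Cd68 passed as lower, at 639 CPM in aOX40 libraries against 1272 CPM in IgG libraries (log2 fold change −0.99, edgeR adjusted p = 0.0362). Csf1r averaged 51.2 CPM in aOX40 libraries and 17.5 CPM in IgG libraries (log2 fold change 1.54, edgeR adjusted p = 0.0546), with every aOX40 library above every IgG library. C1qa, C1qb, C1qc, Ms4a7, Ccr2 and Mertk were at 0 in at least 1 library. Summed markers of dendritic cells (7 of 10 with a row) were 123 to 172 CPM in aOX40 libraries and 83.7 to 226 CPM in IgG libraries. Most of that sum came from the MHC class II genes H2-Ab1 and H2-Eb1. They averaged 67.8 and 82.5 CPM in aOX40 libraries and 71.9 and 72.0 CPM in IgG libraries. Flt3, Clec9a, Zbtb46 and Itgae were at 0 in at least 1 library, and Xcr1 averaged 0.36 CPM in aOX40 libraries and 1.2 CPM in IgG libraries. Summed markers of fibroblasts and endothelium (5 of 9) were 5.10 to 13.2 CPM in aOX40 libraries and 11.6 to 59.9 CPM in IgG libraries. Those of melanoma (7 of 7) were 4.59 to 9.07 CPM in aOX40 libraries and 5.77 to 15.4 CPM in IgG libraries. Markers of T and NK cells (6 of 10) summed to 0.237 to 2.65 CPM in aOX40 libraries and 1.17 to 2.98 CPM in IgG libraries, and the 1 of 5 B cell markers with a row stayed below 1 CPM. The fibroblast gene Col1a1 was called lower, at 1.22 to 2.21 CPM in aOX40 libraries and 3.42 to 32.4 CPM in IgG libraries (log2 fold change −3.09, edgeR adjusted p = 0.0414), without overlap of the groups. None of these marker calls held without aOX40 replicate 2 or without aOX40 replicate 3. Macrophages also express several of the 7 receptors, and the part of these markers and cells in the results was not tested.

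Of the 7 receptors, 1 rose (Clec5a) and 1 fell (Clec7a) in aOX40 libraries, against backgrounds of 2.64% and 3.00% of tested genes. The groups did not overlap for these same 2 receptors, as for 16% of tested genes (aOX40 above in 8.22%, aOX40 below in 7.75%). The median log2 fold change of the 7 was −0.04, beside 0.05 over all tested genes, so the family had no common direction. In bulk libraries, fewer cells that express a receptor and less of its RNA per cell cannot be told apart.

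**Figure D1:**
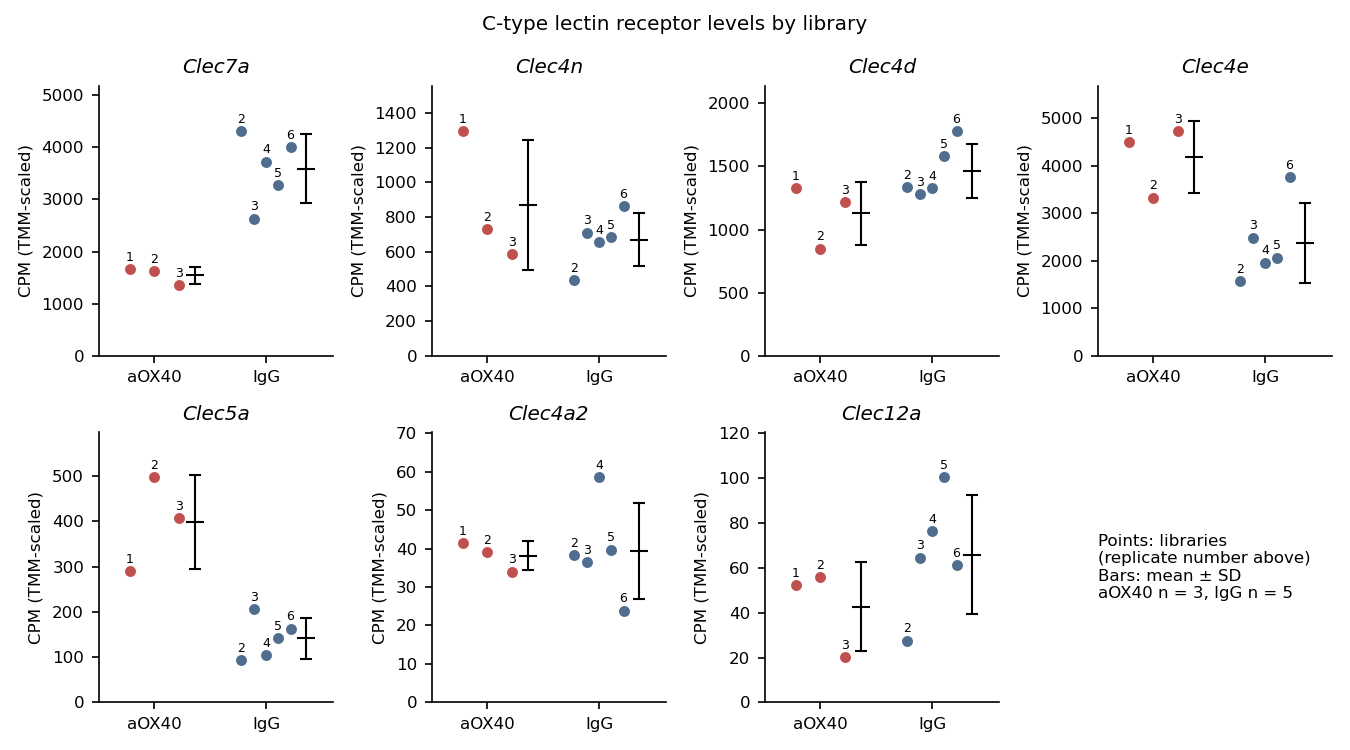
Level of each of the 7 receptors (CPM after TMM scaling, linear axes from 0) in the 3 aOX40 and the 5 IgG libraries, 1 point per library, with the group mean and SD beside the points. The aOX40 points lie below all IgG points for Clec7a and above all of them for Clec5a, and the groups overlap for the other 5.

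Clec7a encodes Dectin-1, the receptor for fungal beta-glucans. Its level was 1657, 1629 and 1357.5 CPM in aOX40 replicates 1 to 3, against 4311, 2628, 3721, 3268 and 3999 CPM in IgG replicates 2 to 6. Every aOX40 library was below every IgG library, with the lowest IgG value, in replicate 3, well clear of the highest aOX40 value. The means were 1548 ± 165 CPM in aOX40 libraries and 3585 ± 658 CPM in IgG libraries (SD, n = 3 and 5). The level was 2.32-fold lower in aOX40 libraries, a log2 fold change of −1.21 (SE 0.21, 95% interval −1.67 to −0.75, edgeR adjusted p = 0.0150). The direction held when any library was left out, but the adjusted p was 0.0811 without aOX40 replicate 2 and 0.0632 without aOX40 replicate 3. In edgeR's test the first of these left 0 genes of the whole table past the threshold, with 2230 at an unadjusted p below 0.05, and the second left 59.

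Clec5a encodes MDL-1, which pairs with DAP12 and DAP10 and is known from myeloid cells in viral infection and inflammation. Its level was 291, 497 and 407 CPM in aOX40 replicates 1 to 3, against 93.2, 205, 105, 142 and 163 CPM in IgG replicates 2 to 6. The groups did not overlap, with aOX40 replicate 1 lowest of its group and IgG replicate 3 highest of its own. The means were 398 ± 103 CPM in aOX40 libraries and 142 ± 45.4 CPM in IgG libraries. The level was 2.81-fold higher in aOX40 libraries, a log2 fold change of 1.49 (SE 0.28, 95% interval 0.88 to 2.10, edgeR adjusted p = 0.0186). It kept its direction when any library was left out, with an adjusted p of 0.115 without aOX40 replicate 2 and 0.0720 without aOX40 replicate 3. Both adaptors of MDL-1 pointed the other way without passing the test: Tyrobp averaged 1055 CPM in aOX40 libraries and 1426 CPM in IgG libraries (log2 fold change −0.43, edgeR adjusted p = 0.327). Hcst averaged 14.2 CPM in aOX40 libraries and 26.1 CPM in IgG libraries (log2 fold change −0.88, edgeR adjusted p = 0.0616), with every aOX40 library below every IgG library.

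**Figure D2:**
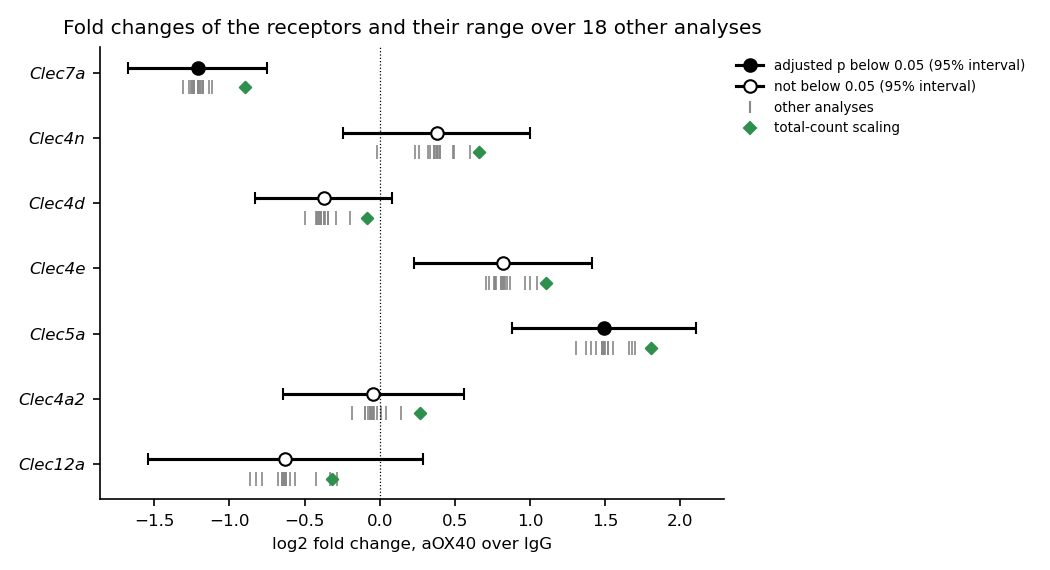
Log2 fold change of the 7 receptors, aOX40 over IgG, from edgeR's quasi-likelihood fit over all tested genes, with its 95% interval. Filled circles mark an adjusted p below 0.05, grey ticks give the value under each of the other analyses, and green diamonds give the value with total counts in place of TMM. The interval of Clec7a lies below 0 and those of Clec5a and Clec4e above 0, and the other 4 span 0.

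Clec4e, Clec4d and Clec4n encode the receptors that signal through FcRgamma. Clec4e, or Mincle, recognises the mycobacterial glycolipid trehalose dimycolate and a nuclear protein released from dying cells. Its level was 4494, 3325 and 4730 CPM in aOX40 replicates 1 to 3, against 1578, 2488, 1961, 2064 and 3760 CPM in IgG replicates 2 to 6. The groups overlapped through a single library, IgG replicate 6, which stood above aOX40 replicate 2. The means were 4183 ± 753 CPM in aOX40 libraries and 2370 ± 841 CPM in IgG libraries, with a log2 fold change of 0.82 (SE 0.27, 95% interval 0.23 to 1.41, edgeR adjusted p = 0.0950). Clec4e thus did not pass the threshold over all genes. Without IgG replicate 6 it did, at a log2 fold change of 1.05 and an adjusted p of 0.0404. With total counts in place of TMM it was 1.11 (edgeR adjusted p = 0.0278), on a scale where the median of all genes is 0.30 higher. As a share of all counts, Clec4e took 0.480%, 0.421% and 0.516% of the aOX40 libraries, against 0.142%, 0.245%, 0.171%, 0.202% and 0.336% of the IgG libraries, without overlap.

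Clec4d, or MCL, is needed for Mincle to reach the cell surface and also pairs with Dectin-2. Its level was 1327, 848 and 1214 CPM in aOX40 replicates 1 to 3, against 1336, 1282, 1327, 1579 and 1780 CPM in IgG replicates 2 to 6. The groups met at their edges, aOX40 replicate 1 falling among the lower IgG libraries. The log2 fold change was −0.37 (SE 0.21, 95% interval −0.83 to 0.08, edgeR adjusted p = 0.298).

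Clec4n, or Dectin-2, binds fungal mannans. Its level was 1296, 731 and 586 CPM in aOX40 replicates 1 to 3, against 436, 709, 656, 685 and 864 CPM in IgG replicates 2 to 6. The aOX40 replicate 1 stood above all other libraries and the remaining aOX40 libraries fell within the IgG range. The log2 fold change was 0.38 (SE 0.28, 95% interval −0.25 to 1.00, edgeR adjusted p = 0.443), and it was −0.02 without aOX40 replicate 1.

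Because MCL forms pairs with Mincle and with Dectin-2, the ratio of their counts was taken within each library, where it does not depend on scaling. The ratio of Clec4d to Clec4e was 0.295, 0.255 and 0.257 in aOX40 replicates 1 to 3, against 0.847, 0.515, 0.676, 0.765 and 0.473 in IgG replicates 2 to 6. Counts of Clec4e exceeded those of Clec4d in every library, and the ratio was lower in each aOX40 library than in any IgG library. On the log2 scale it averaged −1.90 ± 0.12 in aOX40 libraries and −0.65 ± 0.36 in IgG libraries, a difference of −1.25 for which no test was run. The ratio of Clec4d to Clec4n was 1.02, 1.16 and 2.07 in aOX40 libraries, against 3.07, 1.81, 2.02, 2.30 and 2.06 in IgG libraries. Here aOX40 replicate 3 lay inside the IgG range and the others below it. A ratio of counts mixes level with transcript length, so its size is to be read between libraries and not as a ratio of molecules.

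**Figure D3:**
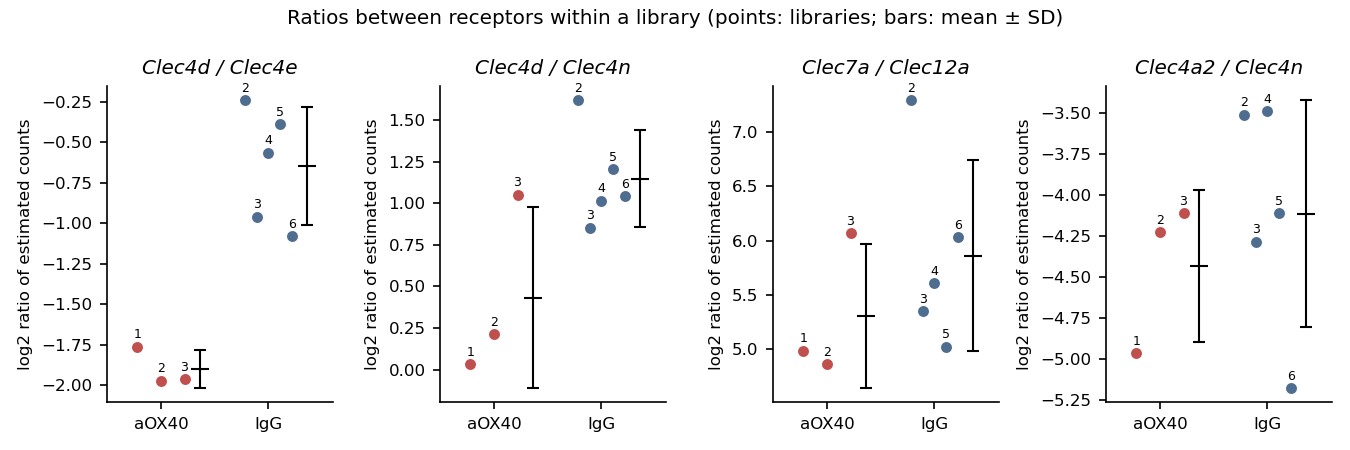
Log2 ratios of counts within each library for the partners Clec4d over Clec4e and Clec4d over Clec4n, and for Clec7a over Clec12a and Clec4a2 over Clec4n, which are not partners, 1 point per library, with the group mean and SD beside the points and replicate numbers above them. The aOX40 libraries lie below the IgG libraries for Clec4d over Clec4e, and the groups overlap for the other 3 ratios.

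Neither receptor with an inhibitory motif passed the test. Clec4a2 encodes DCIR, and its level was 41.5, 39.1 and 34.0 CPM in aOX40 replicates 1 to 3, against 38.3, 36.5, 58.5, 39.7 and 23.9 CPM in IgG replicates 2 to 6. All 3 aOX40 values fell inside the IgG range. The log2 fold change was −0.04 (SE 0.27, 95% interval −0.65 to 0.56, edgeR adjusted p = 0.941), an interval that leaves room for a change either way. Its sign was positive with total counts (0.26) and without IgG replicate 4 (0.14). Part of its transcript resembles those of Clec4b1 (96.3% identity over 17.6% of its length) and Clec4a4 (84.6% over 31.4%), both of which averaged below 1 CPM in each group.

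Clec12a encodes MICL, which recognises uric acid crystals of dead cells and is known to restrain Syk signalling. Its level was 52.3, 55.9 and 20.2 CPM in aOX40 replicates 1 to 3, against 27.5, 64.5, 76.3, 100.3 and 61.1 CPM in IgG replicates 2 to 6. IgG replicate 2 fell among the aOX40 libraries and aOX40 replicate 3 was the lowest of all. The log2 fold change was −0.63 (SE 0.41, 95% interval −1.54 to 0.29, edgeR adjusted p = 0.382), the widest interval of the 7. The count ratio of Clec7a to Clec12a was 31.7, 29.1 and 67.2 in aOX40 libraries, against 157, 40.7, 48.8, 32.6 and 65.5 in IgG libraries. The ratio of Clec4a2 to Clec4n was 0.0320, 0.0534 and 0.0580 in aOX40 libraries, against 0.0880, 0.0514, 0.0891, 0.0579 and 0.0277 in IgG libraries, and both ratios overlapped between the groups.

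Levels were compared between receptors per kilobase of merged exons (CPM per kb). In aOX40 libraries the order of the means was Clec4e (843 ± 152), Clec4d (707 ± 156), Clec4n (613 ± 264), Clec7a (587 ± 62.7), Clec5a (104 ± 26.9), Clec4a2 (13.0 ± 1.31) and Clec12a (7.74 ± 3.55). The leading 4 did not differ from their neighbours beyond the spread between aOX40 libraries, while Clec5a stood clear below them. Within each aOX40 library, however, Clec4e was above Clec4d (905 and 830, 670 and 530, 953 and 759 in replicates 1 to 3). The order of the other neighbours among the 4 varied between libraries. In IgG libraries it was Clec7a (1359 ± 249), Clec4d (914 ± 133), Clec4e (477 ± 169), Clec4n (472 ± 108), Clec5a (36.9 ± 11.8), Clec4a2 (13.5 ± 4.23) and Clec12a (11.9 ± 4.78). Among these, Clec4e and Clec4n did not differ beyond their spread, nor did Clec4a2 and Clec12a. The receptor with the highest level per length was Clec4e in 2 of 3 aOX40 libraries and Clec4n in the other, against Clec7a in 5 of 5 IgG libraries. With the longest transcript as the length, Clec7a and Clec4n traded places in aOX40 libraries, and Clec4a2 and Clec12a did so in IgG libraries.

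**Figure D4:**
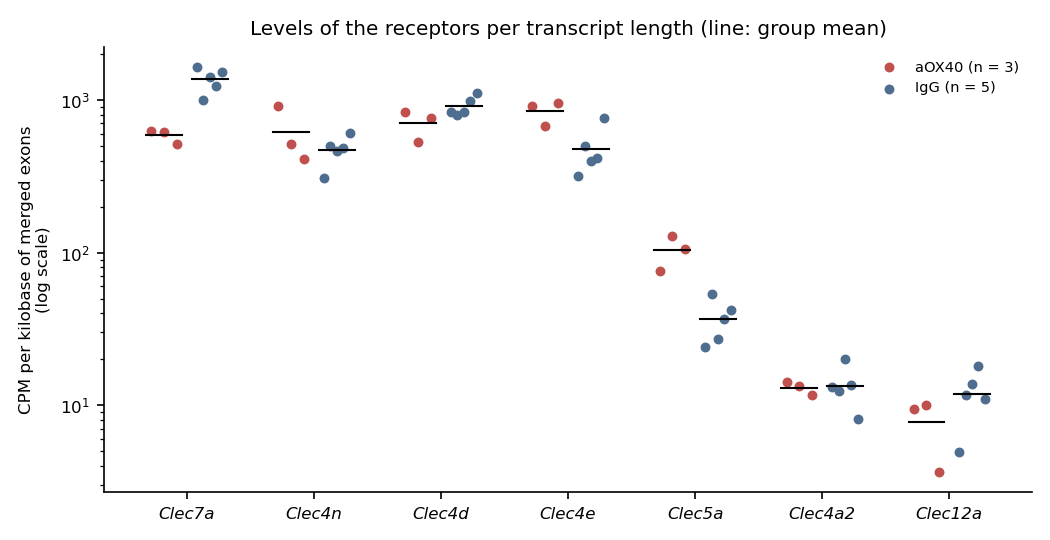
Level of each receptor in CPM per kilobase of merged exons (log axis), 1 point per library and a line at the group mean, aOX40 left of IgG. Clec7a leads in every IgG library, at a mean of 1359, and Clec4e has the highest mean in aOX40 libraries, at 843.

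From library to library within the groups, some receptors varied together and others in opposite directions. After each group's mean was subtracted, Pearson's r of log2 CPM over the 8 libraries ran between −0.70 (Clec4e with Clec4a2) and 0.69 (Clec4n with Clec12a) over the 21 pairs, with a median of −0.01. The receptors that use FcRgamma had positive values with each other, at 0.69 for Clec4d with Clec4e, 0.57 for Clec4e with Clec4n and 0.50 for Clec4d with Clec4n. Clec7a with Clec5a had −0.65. Among 4935 genes at 10 CPM or more, those most like Clec7a were Arl3 (0.935), Ifi209 (0.925) and Prok2 (0.923), and those most like Clec5a were Mob1a (0.983), Leprot (0.961) and Rsf1 (0.960). For Clec4e they were Gm46224 (0.977), Pcna (0.973) and Med13 (0.971), for Clec4d Tpt1-ps3 (0.961), AC159819.1 (0.958) and Nfkbib (0.955), and for Clec4n Ube2d2a (0.989), Myl12a (0.980) and Xiap (0.952). For Clec12a they were Gpx1 (0.961), Selenof (0.942) and Klhl28 (0.940), and for Clec4a2 Abtb1 (0.960), Tbc1d10c (0.958) and Gm20605 (0.944). These values describe 8 libraries, within each of which all genes share the same depth and scaling, and the highest of 4935 values is high by selection.

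Among 36 other C-type lectin receptors and lectin-like genes, 19 had a row and 15 were tested. In edgeR's test 2 of these fell and 0 rose, beside 3.00% lower and 2.64% higher over all tested genes. At an unadjusted p below 0.05 there were 1 above 0 and 2 below, beside 3287 of the 13278 tested genes. DESeq2 and voom called 0 higher. The 15 tested had a median log2 fold change of −0.63, beside 0.05 over all tested genes. That median is the value of Clec2i, which was near the floor of the data. It averaged 0.36 CPM in aOX40 libraries and 0.58 CPM in IgG libraries (SE of the log2 fold change 1.40). Clec2d, the ligand of an inhibitory receptor of NK cells, averaged 3.83 ± 3.14 CPM in aOX40 libraries and 27.9 ± 19.9 CPM in IgG libraries (log2 fold change −2.90, SE 0.66, edgeR adjusted p = 0.0341). Cd93, a surface glycoprotein with a C-type lectin-like domain, averaged 89.9 ± 17.2 CPM in aOX40 libraries and 178 ± 27.0 CPM in IgG libraries (log2 fold change −0.99, SE 0.22, edgeR adjusted p = 0.0285). In both genes every aOX40 library was below every IgG library, and with edgeR's default quasi-likelihood method the adjusted p was 0.0787 for Clec2d and 0.0412 for Cd93. Clec2d lost its call without aOX40 replicate 2 (adjusted p = 0.167), aOX40 replicate 3 (0.120) or IgG replicate 2 (0.0524), and Cd93 without any 1 aOX40 library (0.0688 to 0.158) or IgG replicate 3 (0.0507) or 6 (0.0531), by edgeR's test. Olr1, the receptor for oxidised LDL, had a log2 fold change of −0.32, and the early activation antigen Cd69 had 0.24. Cd302 had 1.24 (edgeR adjusted p = 0.129), and Thbd, or thrombomodulin, had 0.63 (edgeR adjusted p = 0.428). Cd69 was −0.05 without aOX40 replicate 3 or without IgG replicate 2.

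Of 16 genes of the adaptors and CARD9 signalling, all tested, edgeR called 0 in either direction, beside 5.65% of all tested genes. Their median log2 fold change was 0.20, beside 0.05 over all tested genes. At an unadjusted p below 0.05 there were 4 above 0 and 2 below, beside 3287 of the 13278 tested genes in either direction. DESeq2 called 1 higher and 2 lower, beside 506 and 951 over all tested genes. Voom called 0 higher and 1 lower, beside 335 and 389. Syk, the kinase that the activating receptors share, averaged 213 ± 51.0 CPM in aOX40 libraries and 372 ± 55.6 CPM in IgG libraries (log2 fold change −0.80, edgeR adjusted p = 0.0548), and every aOX40 library was below every IgG library. Syk was called under 4 of 18 other analyses and not under 14. Over single libraries left out, its edgeR adjusted p ran from 0.0648 to 0.240. Fcer1g, the adaptor of Mincle, MCL and Dectin-2, averaged 1348 CPM in aOX40 libraries and 1854 CPM in IgG libraries with overlapping groups (log2 fold change −0.46, edgeR adjusted p = 0.332). Lyn, a Src-family kinase that phosphorylates receptor motifs, had 0.25 (edgeR adjusted p = 0.523). Bcl10, which joins CARD9 and is named here after its values were seen, averaged 262 ± 51.7 CPM in aOX40 libraries and 127 ± 43.0 CPM in IgG libraries (log2 fold change 1.05, edgeR adjusted p = 0.0530). It was called under 4 of 18 other analyses and not under 14. Over single libraries left out, its edgeR adjusted p ran from 0.0451 (without IgG replicate 3) to 0.180. Card9 itself was near the floor of the data, at 1.71 CPM in aOX40 libraries and 1.06 CPM in IgG libraries.

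Of 6 phosphatases and other restraints, 5 were tested, 1 was called higher and 0 lower by edgeR, beside 2.64% and 3.00% of all tested genes, with a median log2 fold change of 0.30. At an unadjusted p below 0.05 there were 1 above 0 and 1 below, beside 3287 of the 13278 tested genes. DESeq2 called 1 higher and 1 lower, beside 506 and 951 over all tested genes. Ptpn6 (SHP-1), the phosphatase recruited by inhibitory lectin receptors, averaged 422 ± 77.8 CPM in aOX40 libraries and 154 ± 51.0 CPM in IgG libraries. Its log2 fold change was 1.46 (SE 0.28, edgeR adjusted p = 0.0207), without overlap of the groups. The adjusted p was 0.118 without aOX40 replicate 2 and 0.0766 without aOX40 replicate 3. Its gene overlaps Gm20531, which averaged 4.35 CPM in aOX40 libraries and 3.01 CPM in IgG libraries, and how the counting shared reads between overlapping genes is not given. Inpp5d (SHIP1) averaged 75.5 CPM in aOX40 libraries and 109 CPM in IgG libraries (log2 fold change −0.53, edgeR adjusted p = 0.146). The adaptor Dok3 had 0.30, Ptpn11 (SHP-2) 0.48 and the ubiquitin ligase Cbl 0.05, none past the test.

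Of 18 genes that these receptors are known to induce, 17 had a row and 16 were tested. Of the 16, edgeR called 1 higher and 0 lower, beside 2.64% and 3.00% of all tested genes. DESeq2 called 3 higher and 1 lower, beside 506 and 951 over all tested genes. There were 12 above 0 and 4 below, with a median log2 fold change of 1.15, beside 0.05 over all tested genes. The 4 below were Cxcl2, Il1b, Ccl4 and Ccl3, which had the highest levels of the 16. Among the 12 above, Csf2 was near the floor of the data, at 0.22 CPM in aOX40 libraries and 0.05 CPM in IgG libraries. At an unadjusted p below 0.05 there were 7 above 0 and 1 below, beside 3287 of the 13278 tested genes in either direction. Cxcl1, a neutrophil-attracting chemokine, averaged 68.7 ± 41.0 CPM in aOX40 libraries and 12.2 ± 5.93 CPM in IgG libraries (log2 fold change 2.48, SE 0.43, edgeR adjusted p = 0.0153), with adjusted p-values of 0.0558 and 0.0691 without aOX40 replicates 2 and 3. The related Cxcl2, far more abundant, averaged 13436 CPM in aOX40 libraries and 21427 CPM in IgG libraries (log2 fold change −0.67, edgeR adjusted p = 0.100), with every aOX40 library below every IgG library. Il1b averaged 12035 CPM in aOX40 libraries and 14959 CPM in IgG libraries (log2 fold change −0.31, edgeR adjusted p = 0.521) and overlaps the antisense gene Il1bos. Ccl4 (−0.33) and Ccl3 (−0.33) did not pass either. Tnf and Csf3 are named here after their values were seen. Tnf averaged 404 ± 112 CPM in aOX40 libraries and 137 ± 68.0 CPM in IgG libraries (log2 fold change 1.56, edgeR adjusted p = 0.0705). It was called under 4 of 18 other analyses and not under 14. Over single libraries left out, its edgeR adjusted p ran from 0.0271 (without IgG replicate 2, log2 fold change 1.30) to 0.172. Csf3, which encodes G-CSF, averaged 163 ± 41.8 CPM in aOX40 libraries and 23.3 ± 32.1 CPM in IgG libraries (log2 fold change 2.81, edgeR adjusted p = 0.0733). IgG replicate 2 was at 0 and IgG replicate 3, at 78.0 CPM, held most of the IgG level. Without IgG replicate 3 the log2 fold change was 4.06 (edgeR adjusted p = 0.0246). Csf3 was called under that 1 of 17 other analyses and not under 16. With other single libraries left out, its edgeR adjusted p reached 0.209. Other stimuli induce the same genes, so the list does not read out the receptors alone.

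**Figure D5:**
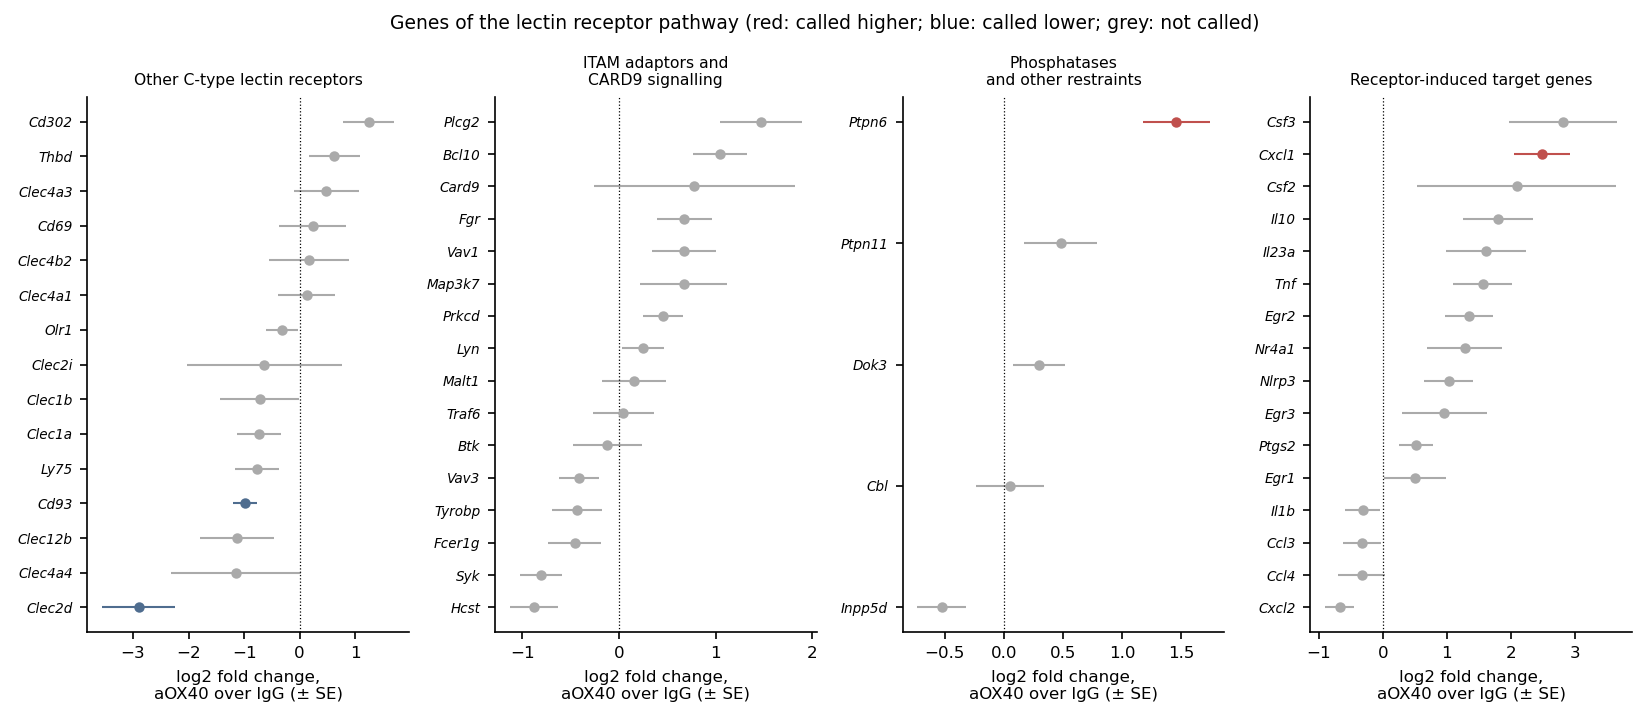
Log2 fold change, aOX40 over IgG, of every tested gene in the 4 pathway lists, 1 point per gene with its SE, 1 panel per list. Red marks genes called higher (Ptpn6, Cxcl1), blue genes called lower (Cd93, Clec2d) and grey genes not called, and 12 of the 16 induced genes lie above 0.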

How the data were processed

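RNA-seq of total RNA from cells labelled neutrophils was deposited by the authors as 1 table of estimated counts per gene symbol for 8 libraries (3 aOX40, 5 IgG). Per the submitters' processing notes, STAR 2.6.0, Subread and featureCounts 1.5.1 were used with the mm10 build. No source used here gives the annotation, the strand setting or the step that made fractional counts. Among the deposited values, 63.4% are whole within 0.01, and the lowest row total is 10. Values were rounded to whole counts.

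Genes passed filterByExpr of edgeR 4.0.16 (R 4.3.3), libraries were TMM-scaled, and aOX40 was set against IgG by edgeR's quasi-likelihood F test over all 13278 tested genes, with Benjamini-Hochberg adjustment and a threshold of 0.05. The current quasi-likelihood method (legacy = FALSE) was taken as the main one after both it and edgeR's default, the earlier method, had been run. It called 750 genes and the default 320. Calls of the 7 receptors were the same under both, while of the other named genes Clec2d, Adgre1, Cd68, Mmp8, Mmp9, Cd177 and Col1a1 were called only under the main one. Per-library levels are TMM-scaled CPM, and standard errors and 95% intervals come from the fit. The spread between libraries was large, with a common biological coefficient of variation of 84.7% over all tested genes. For the 7 receptors the coefficient of variation of CPM was smaller. It was 10.0% to 45.9% in aOX40 libraries and 14.6% to 40.1% in IgG libraries. Depth was 52.7 to 73.5 M counts, so counting error is small beside that spread for all 7 receptors. On simulated data for 13278 genes with 200 changed at 10 CPM or more, the test recovered 30% of 2-fold, 90% of 4-fold, 100% of 8-fold and 100% of 16-fold changes. It called 23 unchanged genes there, beside at most 200 true calls, so false calls were a larger share of the calls than the threshold of 0.05. It called 0 when none was changed.

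The 7 members, the 4 pathway lists and the marker lists were chosen with earlier results of these data known. A few genes of the lists are not reported here, and counts and medians of the lists are without them. Named were all members, the called genes of each pathway list up to 6, up to 4 others with the highest level, and the 3 genes most like each member. Marker genes named, Csf2, Csf3, Tnf and Bcl10 were chosen after their values were seen. Positions are from GENCODE M21, transcripts were compared with BLAST 2.17.0, and promoters are from RefSeq. Alternatives were other scalings, other filters, DESeq2 1.42.0, limma voom 3.58.1, robust empirical Bayes, a replicate block, each library left out, and, added after seeing the data, the earlier edgeR method.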

Additional observations from a re-analysis of the deposited data

Results flagged for a closer look

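The count ratio of Clec7a to Clec12a was 157 in IgG replicate 2, far from the other IgG libraries, of which the nearest was 65.5. The gap to the nearest was 0.735 of the whole range of the group, above Dixon's 95% critical value for 5 libraries. That gap was taken on the untransformed ratios. On the log2 scale the values were 7.29, 5.35, 5.61, 5.03 and 6.03 in IgG replicates 2 to 6. There the gap is a smaller share of the range, below the limit of 0.71, so the ratio stands out on the untransformed scale alone. In IgG replicate 2 Clec7a was the highest of the IgG group, at 4311 CPM, and Clec12a the lowest, at 27.5 CPM. Of 34 sets of values examined in this way it was the only one past the limit, and chance flags about 1 in 20. Its cause was not tested.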

How the results depend on the processing

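Clec7a and Clec5a kept their directions under all 18 alternatives and their calls under 15, with log2 fold changes of −1.31 to −0.90 and 1.30 to 1.80. The calls were lost without aOX40 replicate 2, without aOX40 replicate 3 and with the replicate block, and the cause was not tested. Clec4e was called under 3 of 18: with total counts (1.11), with DESeq2 (0.80) and without IgG replicate 6. Clec4a2 changed sign with total counts (0.26), with voom (0.0095), and without aOX40 replicate 3 (0.04) or IgG replicate 4 (0.14), and Clec4n without aOX40 replicate 1 (−0.019). Cd69 changed sign without aOX40 replicate 3 (−0.048) or IgG replicate 2 (−0.053), in a range of −0.053 to 0.72 over libraries left out. Cbl did so with upper quartile factors (−0.0015), and when aOX40 replicate 2 (−0.19), IgG replicate 2 (−0.040) or IgG replicate 4 (−0.0069) was dropped, in a range of −0.19 to 0.29.

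The 750 called genes (351 higher, 399 lower) became 874 higher and 246 lower with total counts, where 78.0% of calls were higher against 46.8%. They became 452 with no filter (194 higher, 258 lower), 1457 with DESeq2 (506 higher, 951 lower) and 320 with edgeR's earlier quasi-likelihood method (109 higher, 211 lower), an alternative chosen after seeing the data. With at least 10 counts in all libraries, called genes numbered 937 of the 8843 tested (384 higher, 553 lower). With upper quartile factors they numbered 787 (314 higher, 473 lower), and with voom 724 (335 higher, 389 lower). The counts per list that follow are to be read beside these. Receptors called higher were 2 with total counts and 2 with DESeq2. Other C-type lectin genes called lower were 1 with total counts, 1 with voom and 1 with the earlier method. Adaptor and CARD9 genes called higher, 0 in the main analysis, were 2 with total counts, 1 with at least 10 counts in all libraries and 1 with DESeq2. Those called lower were 1 with upper quartile factors, 1 with at least 10 counts, 2 with DESeq2 and 1 with voom. Restraints called lower were 1 with DESeq2. Induced genes called higher were 4 with total counts, 4 with at least 10 counts and 3 with DESeq2, and those called lower 1 with DESeq2.

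With each library left out in turn, 0 to 589 genes were called (0 to 263 higher, 0 to 326 lower), the fewest without aOX40 replicate 2, where edgeR called 0 and 2230 had an unadjusted p below 0.05. Receptors called ran 0 to 2 higher and 0 to 1 lower, other lectin genes lower 0 to 2, adaptors higher 0 to 1, restraints higher 0 to 1 and induced genes higher 0 to 2. Log2 fold changes ran −1.31 to −1.12 for Clec7a, 1.30 to 1.68 for Clec5a, 0.70 to 1.05 for Clec4e, −0.50 to −0.20 for Clec4d, −0.019 to 0.60 for Clec4n, −0.18 to 0.14 for Clec4a2 and −0.87 to −0.28 for Clec12a.

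The groups share replicate numbers 2 and 3 only, and the labels do not say that these pair libraries. Same-numbered libraries deviated from their group means with correlations of 0.02 and 0.05. With the replicate number as a block, edgeR called 0 genes in either direction and so 0 on every list, with 2594 genes at an unadjusted p below 0.05. Clec7a had −1.18 and Clec5a 1.70 in that fit. Only 4 libraries bear on it. The adjusted p of 0.238 for both there leaves the comparison without a call.

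In the simulation with 3 aOX40 libraries, 30% of 2-fold changes were recovered. Its changed genes were drawn from all genes at 10 CPM or more, so that share does not carry over to the 7 receptors. The SE of their log2 fold changes was 0.21 (Clec4d) to 0.41 (Clec12a). Depth does not limit the 7 receptors, whose lowest value in any library was 1341 counts.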
